A study of Mus musculus with 10 samples.

Results

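The baseline transcriptome of unchallenged mouse ileum was described from 5 of the 10 samples of the series, those whose titles begin with Ileum_WT. Its members are the probes with a detection p-value under 0.05 on all 5 of these arrays, which were 9697 of the 25697 probes on the table, or 37.7%. The samples are wild-type male C57Bl/6 mice aged 8 weeks, housed under specific-pathogen-free conditions on standard chow and given no treatment. They are called WT_640 to WT_644 here, after their titles. WT_640 and WT_641 were labelled as array set 1, and WT_642, WT_643 and WT_644 as array set 2. The other 5 samples of the study come from interferon-gamma knockout (IFNgKO) mice of the same strain, sex, age and housing, with 2 arrays of the first set and 3 of the second. The study set the genotypes side by side, and that comparison is not made here. The IFNgKO arrays serve only as separate samples in which a spread or an array set difference first seen in wild type can be looked at again. Nothing in the labels states that every sample came from its own mouse, and p-values measure only the spread between these samples, which may be technical.

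The ileum is the last stretch of the small intestine. Its villi are covered by absorptive enterocytes, which digest and take up what the upper bowel left over and recover bile acids for return to the liver. Crypts between the villi hold stem cells and Paneth cells, which fill the crypt with lysozyme and with small antimicrobial peptides called defensins, while goblet cells secrete mucus and rare enteroendocrine and tuft cells sense the lumen. Below the epithelium lie immune cells, fibroblasts and vessels, and a coat of smooth muscle with its own nervous system. Whole tissue was homogenised, so every level is a sum over these cells, and fewer cells of a type cannot be told apart from less RNA per cell.

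The named members cover 7280 of the 16590 named genes on the table, a share of 43.9%. A further 2187 genes (13.2%) were detected on 1 to 4 arrays and 7123 (42.9%) on none. Among the member probes 9139 carry a gene name and 558 are unnamed here, and 1473 genes have several member probes, in which case the brightest stands for the gene. Levels are log2 normalised intensities. They ran from 5.71 to 15.63, with quartiles at 7.45, 8.82 and 10.32, a 970-fold span, against a median of 4.72 for the probes detected on no array. Only 110 member probes lay above 14. Just inside the threshold, the 312 probes whose highest detection p-value was between 0.04 and 0.05 had a median level of 6.15, and just outside it the 267 probes between 0.05 and 0.06 had 6.05.

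The 5 arrays did not resemble each other equally. From 10618 (WT_641) to 12549 (WT_642) probes were detected per array, the median raw intensity lay between 93.0 and 110.0, and the 100 brightest probes held 16.8% to 18.1% of the summed signal. Over the member probes the 3 arrays of set 2 correlated with each other at 0.979 to 0.983, WT_640 with WT_641 at 0.957, and WT_641 with the set 2 arrays at 0.938 to 0.948. These are correlations across probes of single arrays, given as a description. WT_641 stood farthest out on the first principal component, at -41.9 against -12.6 for WT_640 and at least 14.7 for each array of set 2. WT_640 stood farthest out on the second, at -31.3 against -5.86 to 16.6 for the others. These components held 51.1% and 27.0% of the variance. Results that rest on WT_641 are given with and without it. Without WT_641 the members numbered 10192.

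Detection was read by gene list. The share of all named genes detected on all 5 arrays, 43.9%, is the background for every count below, and since probes differ in sensitivity a gene that was not detected is not thereby absent. Ribosomal proteins show this limit: 56 of 65 were detected on all 5 arrays, and 9 on none, Rps23, Rpl6 and Rpsa among them, which are named after their values were seen.

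**Figure D1:**
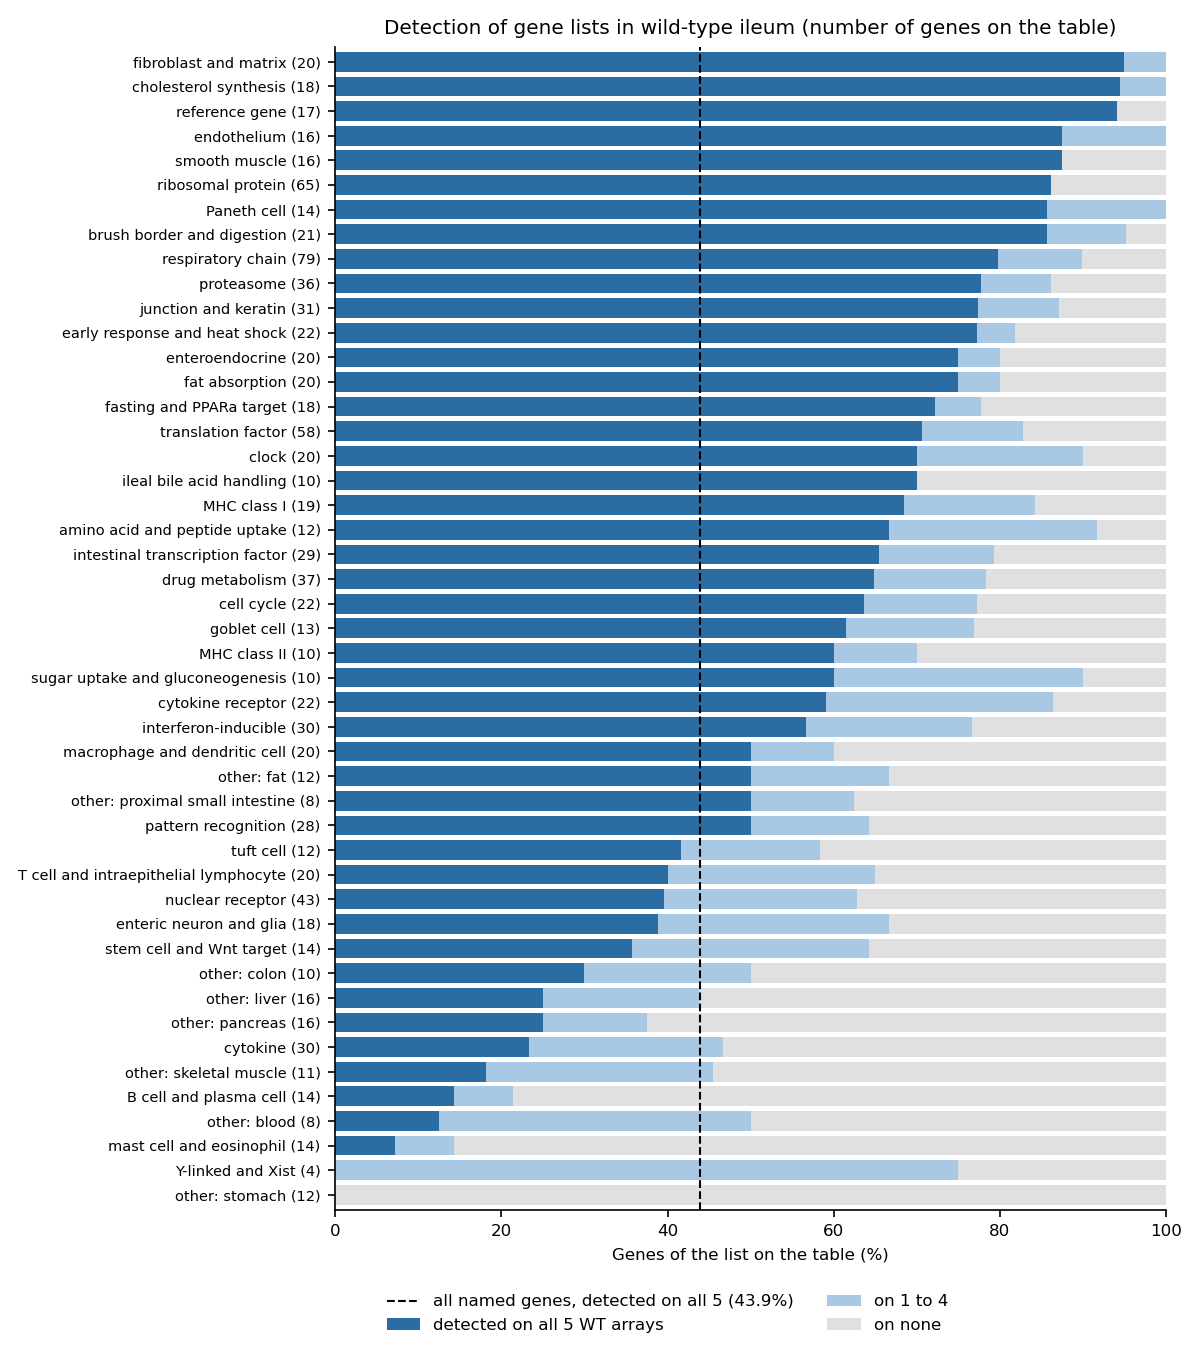
For each of the 47 gene lists, the bar gives the percentage of its genes on the table detected on all 5 wild-type arrays (dark), on 1 to 4 (light) and on none (grey), with the number of genes in brackets. The dashed line marks the 43.9% of all named genes detected on all 5; fibroblast, cholesterol synthesis and reference genes lie farthest to its right, and stomach genes have no dark part.

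Among the lists of the absorptive epithelium, brush border and digestive genes were detected in 18 of 21 cases, with a median level of 13.19. Their brightest were Sis, the sucrase-isomaltase of the brush border, at 15.04 ± 0.25 (SD, n = 5 as for all levels), Cdhr5, a protocadherin that links microvillus tips, at 14.86 ± 0.12, the peptidase Dpp4 at 14.22 ± 0.15, and Amn, a partner of the vitamin B12 receptor, at 14.21 ± 0.26. Fat absorption genes were detected in 15 of 20 cases, led by the apolipoprotein Apoa1 at 15.20 ± 0.07, the acyl-CoA synthetase Acsl5 at 14.48 ± 0.13 and the sterol exporter subunits Abcg5 and Abcg8 at 13.94 ± 0.11 and 12.60 ± 0.17. The probes for Fabp1, Fabp2, Cd36 and Scarb1 were detected on no array, and these undetected genes, like those of other epithelial and immune lists below, are named after their values were seen. Sugar uptake and gluconeogenesis gave 6 of 10, with the fructose kinase Khk at 12.19 ± 0.38 and the glucose transporter Slc5a1 at 11.68 ± 0.23, and amino acid and peptide uptake gave 8 of 12, led by Slc7a9 at 12.92 ± 0.24.

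Of the bile acid genes, 7 of 10 were detected, and no other gut segment was measured to set beside the label ileum. Fabp6, the bile acid binding protein of ileal enterocytes, lay between 14.75 (WT_642) and 15.20 (WT_644), with a mean of 15.01 ± 0.17. The exporter subunits Slc51a and Slc51b averaged 14.68 ± 0.12 and 13.99 ± 0.27, and the bile acid receptor gene Nr1h4 averaged 12.85 ± 0.28. All 4 were bright on every array. Fgf15, the hormone that ileal enterocytes release in response to bile acids, varied more, at 9.54, 7.99, 8.97, 8.46 and 9.27. Its lowest value was that of WT_641. The uptake transporter Slc10a2, the receptor Gpbar1 and Nr0b2 were detected on no array. Any reading of the label from this list rests on the binding protein, the exporter and the receptor gene Nr1h4, not on the transporter.

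Lists of other gut segments and organs ranged from none detected to 50%, the share of the fat and proximal small intestine lists, which lay above the background and above the stem cell, tuft cell and T cell lists. Stomach genes were detected in 0 of 12 cases, with Gkn1, Gkn2, Gkn3, Tff1, Tff2, Atp4a, Atp4b, Pgc, Cblif, Chia1, Muc5ac and Muc6 on no array. Of 10 colon genes 3 were detected, Car4 at 9.25 ± 0.67, Hoxa13 at 7.53 ± 0.42 and Mptx1 at 5.88 ± 0.34, while Slc26a3, Aqp8, Hoxb13, Hoxd10 and Hoxd12 were on no array. The proximal small intestine list gave 4 of 8, the iron genes Heph (11.93 ± 0.70), Slc40a1 (11.58 ± 0.38) and Slc11a2 (9.24 ± 0.38) and the incretin Gip (6.56 ± 0.30), and the duodenal genes Pdx1, Cybrd1 and Onecut2 were on no array. Liver genes gave 4 of 16, Serpina1b at 11.09 ± 0.55, Trf at 8.44 ± 0.91, Serpina1a at 6.60 ± 0.52 and Ambp at 6.18 ± 0.11, with Alb, Ahsg, Apoa2, Apoh, Cyp7a1, Fga, Fgb, Fgg and Tat on no array.

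Pancreas genes gave 4 of 16. Clps, which encodes the colipase of pancreatic juice, was the bright one, at 11.54, 12.63, 13.29, 13.14 and 12.59, and Rnase1, Cela1 and Ctrl averaged 8.69 ± 0.52, 8.21 ± 0.06 and 6.73 ± 0.25. The defining acinar genes Prss2, Cpa1, Cpb1, Cel, Cela2a, Cela3b, Amy2a5, Try4 and Try5 and the islet gene Ins2 were on no array. Fat genes gave 6 of 12, Lpl, Pparg, Adipoq and Cidec at 10.07 ± 1.29, 8.41 ± 0.49, 7.81 ± 1.51 and 7.71 ± 0.91, with Fabp4, Plin1, Retn and Ucp1 on no array. Blood gave 1 of 8, the alpha globin Hba-a1 at 11.72 ± 1.08, with Hbb-b2, Pf4, Ppbp and Epb42 on no array, and skeletal muscle gave 2 of 11, the actin Acta1 at 9.48 ± 0.88 and the creatine kinase Ckm at 7.11 ± 0.81, with Actn3, Myh1, Myh4, Pvalb, Tnnc2 and Tnnt3 on no array.

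The Paneth, goblet and enteroendocrine lists lay above the background share. Paneth cell genes were detected in 12 of 14 cases, and no member was missed on all arrays. Lyz1, the Paneth cell lysozyme, stood at 15.48, 15.36, 15.20, 15.34 and 15.52, and the defensin probe Defa20 at 15.42, 15.37, 15.32, 15.29 and 15.37. Defa26, Defa22 and the bactericidal lectin Reg3b were as bright, and on every array each of these 5 stood at 14.71 or above. Defensin genes are near-identical copies, so a probe may bind several of them and their names are uncertain. Goblet cell genes gave 8 of 13, with the lectin Zg16 at 15.27 ± 0.05, Clca1 at 14.63 ± 0.17, Spink4 at 13.97 ± 0.16 and the mucin Muc13 at 13.68 ± 0.55, and Atoh1, Retnlb and Tspan13 on no array.

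Enteroendocrine genes gave 15 of 20 at a lower median of 8.21. Secretin (Sct) was the brightest at 13.27 ± 0.22, followed by peptide YY (Pyy) at 9.86 ± 0.53, the granule protein Chgb at 9.73 ± 0.17 and proglucagon (Gcg) at 9.48 ± 0.39. Tuft cell genes gave 5 of 12, Alox5ap, Avil, Dclk1 and Il17rb at 8.32 ± 0.45, 8.02 ± 0.23, 7.50 ± 0.26 and 6.54 ± 0.31 and Trpm5 close to the threshold, and the tuft cell factor Pou2f3 was on no array. Stem cell and Wnt target genes gave 5 of 14, with Axin2 at 11.30 ± 0.16, Olfm4 at 10.06 ± 0.72, Cd44 at 8.31 ± 0.39 and the stem cell receptor Lgr5 at 7.95 ± 0.22. Cell cycle genes gave 14 of 22, with the replication helicase subunits Mcm4 at 10.97 ± 0.08 and Mcm5 at 9.95 ± 0.28, and the mitotic genes Cdc20 at 10.47 ± 0.40 and Birc5 at 10.02 ± 0.34.

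In the gut wall, 3 of the 4 lists lay above the background share. Smooth muscle genes were detected in 14 of 16 cases with a median of 11.98, led by the actin Acta2 at 15.22 ± 0.21, Tpm1 at 14.01 ± 0.31, the myosin kinase Mylk at 13.76 ± 0.42 and Actg2 at 13.70 ± 0.27. Fibroblast and matrix genes gave 19 of 20, with Dcn at 11.83 ± 0.59, Col6a1 at 11.29 ± 0.17, Col4a1 at 11.22 ± 0.37 and Mgp at 10.96 ± 0.26. Endothelium gave 14 of 16, with Plvap, Egfl7, Esam and Robo4 at 10.76 ± 0.23, 10.39 ± 0.33, 9.98 ± 0.24 and 9.68 ± 0.28. Enteric neurons and glia gave 7 of 18, below the background share, with the neuropeptide galanin (Gal) at 9.52 ± 0.70, Stmn2 at 8.62 ± 0.32, Uchl1 at 8.34 ± 0.47 and Vip at 7.75 ± 1.12.

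**Figure D2:**
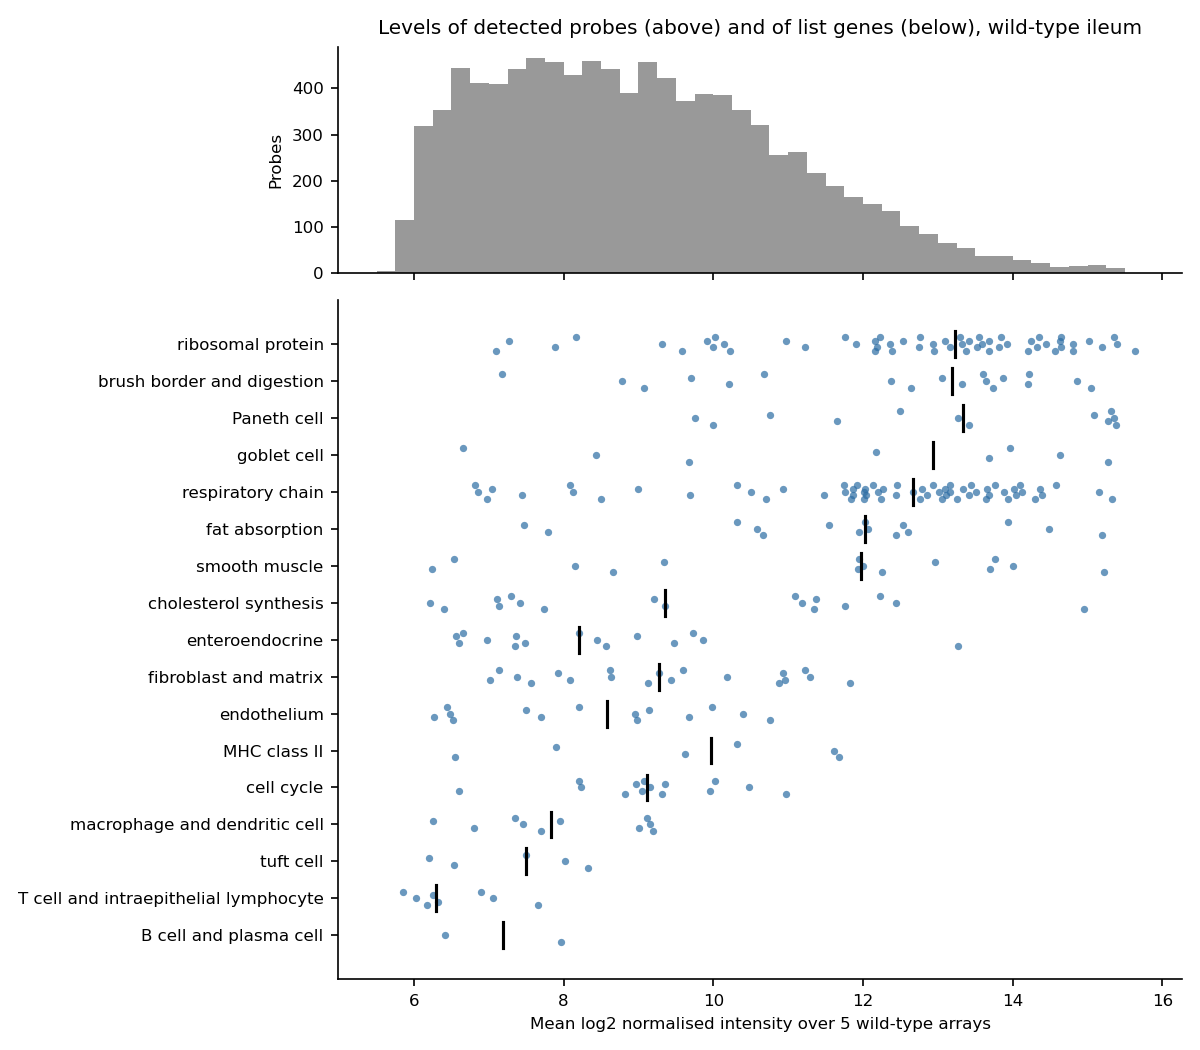
The upper panel counts member probes by mean log2 normalised intensity over the 5 wild-type arrays, and in the lower panel each point is a gene of the named list detected on all 5, with the list median as a bar. Ribosomal, brush border, Paneth and goblet lists have medians near 13, and tuft, lymphocyte and macrophage lists have medians under 8. Intensities of different probes depend on probe sequence as well as on transcript, so positions show signal and not an order of transcript abundance.

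Immune cell lists ranged from 7.14% to 50% detected. T cell and intraepithelial lymphocyte genes gave 8 of 20, the integrin Itgae of intraepithelial lymphocytes at 7.66 ± 0.32, Cd160 at 7.06 ± 0.59, Cd3g at 6.89 ± 0.27 and Cd3e at 6.32 ± 0.27, and the probes of Cd8a, Cd4, Gzma and Gzmb were on no array. B cell and plasma cell genes gave 2 of 14, Mzb1 at 7.97 ± 0.28 and Pou2af1 at 6.42 ± 0.36, and the joining chain Jchain of secreted immunoglobulin A was on no array. Macrophage and dendritic cell genes gave 10 of 20, led by C1qb at 9.20 ± 0.39, Lyz2 at 9.16 ± 0.38, C1qc at 9.11 ± 0.44 and Fcer1g at 9.01 ± 0.36. Mast cell and eosinophil genes gave 1 of 14, the histidine decarboxylase Hdc at 7.22 ± 0.32.

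Antigen presentation was partly detected. MHC class II gave 6 of 10, with H2-Ab1 at 11.68 ± 0.28, the invariant chain Cd74 at 11.61 ± 0.34, H2-Eb1 at 10.31 ± 0.44 and H2-DMa at 9.62 ± 0.38, and MHC class I gave 13 of 19, with B2m at 14.39 ± 0.25, H2-T23 at 12.45 ± 0.22, the chaperone Pdia3 at 12.42 ± 0.22 and the immunoproteasome subunit Psmb10 at 12.27 ± 0.34. Interferon-inducible genes gave 17 of 30 without any challenge, with Irf1 at 12.53 ± 0.24, Irgm1 at 11.75 ± 0.28, Gbp2 at 10.10 ± 0.27 and Irf9 at 9.23 ± 0.22. Interferon-gamma itself was not detected: the lowest detection p-value of the 2 Ifng probes was 0.0977, and their raw intensities were 83.6 ± 9.83 and 89.8 ± 14.9. Cytokine genes gave 7 of 30, Il15 at 10.92 ± 0.34 being the bright one before Il18 at 7.91 ± 0.83, Il7 at 7.13 ± 0.64 and Tgfb1 at 6.81 ± 0.95. Cytokine receptor genes gave 13 of 22, with Il17rc at 11.80 ± 0.16, both interferon-gamma receptor chains Ifngr1 and Ifngr2 at 11.71 ± 0.28 and 11.17 ± 0.21, and Il13ra1 at 11.22 ± 0.21. Pattern recognition genes gave 14 of 28, with Casp1 at 13.54 ± 0.18, the flagellin sensor Naip5 at 12.69 ± 0.21, Tollip at 11.84 ± 0.21 and Pglyrp1 at 11.57 ± 0.11.

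Lists of housekeeping machinery all lay above the background share. Beside the ribosomal list (median 13.22), respiratory chain genes gave 63 of 79 with a median of 12.67, the ATP synthase subunits Atp5b, Atp5g3 and Atp5j2 at 15.33 ± 0.14, 15.15 ± 0.17 and 14.58 ± 0.25 and Uqcrh at 14.39 ± 0.20. The proteasome gave 28 of 36, with Psmb4 at 13.47 ± 0.23, Psma2 at 13.29 ± 0.15, Psma5 at 13.06 ± 0.15 and Psmd4 at 13.02 ± 0.27, and translation factors gave 41 of 58, with Eif3f at 14.08 ± 0.13, Eif4h at 14.08 ± 0.16, Eef1g at 13.95 ± 0.12 and Eif3i at 13.47 ± 0.15. Reference genes gave 16 of 17, with Actb at 15.47 ± 0.04, B2m, Gapdh at 13.88 ± 0.09 and Tuba1b at 13.73 ± 0.19.

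The lists of epithelial structure and metabolism lay above the background share. Junction and keratin genes gave 24 of 31, with Krt8 at 14.58 ± 0.32, Ctnna1 at 14.19 ± 0.15, Krt20 at 13.82 ± 0.26 and Krt19 at 12.90 ± 0.30. Drug metabolism genes gave 24 of 37, with Cyp4f14 at 15.04 ± 0.25, Mgst3 at 13.91 ± 0.27, Cyp2c55 at 12.88 ± 0.38 and Mgst1 at 12.75 ± 0.41. Cholesterol synthesis gave 17 of 18, with Hmgcs1, the synthase at the start of the pathway, at 14.95 ± 0.34, Sqle at 12.44 ± 0.37, Fdps at 12.23 ± 0.38 and Msmo1 at 11.76 ± 0.32. Fasting and PPAR-alpha target genes gave 13 of 18, with Acadm at 13.10 ± 0.24, Ech1 at 12.47 ± 0.09, Slc25a20 at 12.13 ± 0.29 and Cpt2 at 11.67 ± 0.26.

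Regulators ranged from 39.5% to 77.3% detected. Intestinal transcription factors gave 19 of 29, with Klf5 at 14.32 ± 0.20, the intestinal identity factor Cdx2 at 12.86 ± 0.36, Hnf4a at 12.18 ± 0.27 and Elf3 at 11.90 ± 0.33. Nuclear receptors gave 17 of 43, with Nr1h4, Esrra at 12.25 ± 0.22, Hnf4a and the vitamin D receptor Vdr at 11.89 ± 0.25 the brightest. Clock genes gave 14 of 20, with Clock at 11.07 ± 0.17, Dbp at 10.92 ± 0.41, Csnk1d at 10.28 ± 0.26 and Per2 at 10.25 ± 0.54. Early response and heat shock genes gave 17 of 22, with Hspa8 at 13.99 ± 0.42, Zfp36 at 12.28 ± 0.27, Bag3 at 11.89 ± 0.20 and Dnajb1 at 11.58 ± 0.24. The Y-linked genes and Xist were too dim to check the labelled sex: Eif2s3y was detected on 3 arrays, Uty on 2, Kdm5d on 0 and Xist on 2.

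The 25 genes with the highest signal came from a few functions. In order of mean signal they were Rplp1, Actb, Rpl41, Lyz1, Defa20, Rpl23, Atp5b, Reg3b, Zg16, Defa26, Acta2, Apoa1, Rps20, Atp5g3, Tmbim6, Fth1, Defa22, Guca2a, Sis, Cyp4f14, Rpl38, Fabp6, Lgals4, Hmgcs1 and Guca2b. Paneth cell genes supplied 5 of them, from a list that makes up 0.165% of all detected genes, and ribosomal proteins also 5, from 0.769%. These shares are a description, since the lists were chosen with earlier results of these data known. The probes Defa20, Defa26 and Defa22 may also bind the same near-identical copies. Tmbim6 encodes an inhibitor of cell death in the endoplasmic reticulum, Fth1 the ferritin heavy chain, Guca2a and Guca2b the hormones guanylin and uroguanylin that act on intestinal fluid secretion, and Lgals4 a galectin of the gut epithelium. Rplp1 had the same value, 15.63, on every array, because it held the top rank on each and quantile normalisation gives equal ranks equal values. For the same reason spread close to this ceiling is compressed. The 100 brightest genes held 17 ribosomal protein genes and 11 of the respiratory chain.

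The promoters of bright and variable genes were searched for a TATA motif and for CpG content. RefSeq promoter windows of assembly GRCm38.p6 (250 bases before to 50 after each start, 300 bases) were matched by symbol for 5949 of the 7280 detected genes and 19 of the 25 brightest. Each was searched on its own strand for TATAAA starting 40 to 20 bases before the start, and the reverse strand was searched for the same letters in the same window. In the whole promoter table, of 27025 sequences, 2.22% held it on the gene strand and 0.666% on the reverse strand, against 1.46% and 0.319% of the detected genes and 4.08% and 0.918% of the genes detected on no array. Among the 25 brightest 3 of 19 held it (15.8%), Defa20, Reg3b and Defa22, and 5.26% held it on the reverse strand. The gene-strand share was 6.25% in the 100 brightest and 4.13% in the 500 brightest. The 3 promoters that held it are printed here with Defa21, the defensin probe with the largest spread. Printed beside them are Atp5g3, Rpl41 and Hmgcs1, which lack it and were picked for the highest observed to expected CpG ratios of the 19. They are therefore not typical of the 19. Each is given as the last 100 bases before the start, with TATAAA in capitals in the first 4. In the last 3, CG, which is its own reverse complement, is in capitals.
Defa20, chr8:21509158-21509257, plus strand: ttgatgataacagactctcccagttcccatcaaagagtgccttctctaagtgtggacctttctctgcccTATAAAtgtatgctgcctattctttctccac
Reg3b, chr6:78370785-78370884, plus strand: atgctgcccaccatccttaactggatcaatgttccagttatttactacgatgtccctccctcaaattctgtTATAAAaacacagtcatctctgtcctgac
Defa22, chr8:21162177-21162276, plus strand: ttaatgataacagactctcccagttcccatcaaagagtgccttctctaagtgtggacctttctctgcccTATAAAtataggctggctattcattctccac
Defa21, chr8:21025445-21025544, plus strand: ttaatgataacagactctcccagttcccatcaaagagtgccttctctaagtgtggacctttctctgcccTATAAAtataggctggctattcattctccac
Atp5g3, chr2:73911327-73911426, minus strand: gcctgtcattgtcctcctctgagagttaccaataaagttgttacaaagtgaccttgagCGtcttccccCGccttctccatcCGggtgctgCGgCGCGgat
Rpl41, chr10:128549169-128549268, minus strand: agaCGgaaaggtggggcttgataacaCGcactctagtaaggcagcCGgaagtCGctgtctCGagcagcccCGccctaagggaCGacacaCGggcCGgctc
Hmgcs1, chr13:119690251-119690350, plus strand: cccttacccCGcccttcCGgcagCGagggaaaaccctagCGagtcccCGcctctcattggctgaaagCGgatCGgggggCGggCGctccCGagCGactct

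The printed stretches of Defa22 and Defa21 were identical at 100 of 100 bases, and Defa20 matched each of them at 95 of 100, which shows how alike these genes are. In all 3, TATAAA began 31 bases before the start, and in Reg3b 29 bases before it. The stretches of Atp5g3, Rpl41 and Hmgcs1, picked for high CpG ratios, held 6, 9 and 11 CG pairs. Over the full window an observed to expected CpG ratio over 0.6 was found in 70.8% of detected genes, 54.8% of those detected on 1 to 4 arrays and 33.2% of those detected on none, against 36.4% of all promoters in the table. It was found in 6 of 19 promoters of the 25 brightest genes (31.6%), in 58.8% of the 100 brightest and in 71.6% of the 500 brightest, and in 44.4% of the 100 genes with the largest spread. A match is a description of the letters and says nothing of binding.

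The spread between arrays was measured within array sets, as the residual SD about the array set means. Its median over the detected genes was 0.253 on the log2 scale, and over 20 bins of level the bin median was highest, 0.33, around a level of 6.73 and lowest, 0.195, in the brightest bin. A spread ratio divides a gene's SD by the median of its bin. With 3 residual degrees of freedom a single SD is known only to within a factor of 0.566 to 3.73 (95% interval, normal errors). A ratio over 2 was found in 393 genes (5.4%), and over 3 in 58. The 20 genes with the largest ratios are a description of these 5 arrays and not a tested class. The gene at rank 100 had a ratio of 2.70 and the next 2.68.

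**Figure D3:**
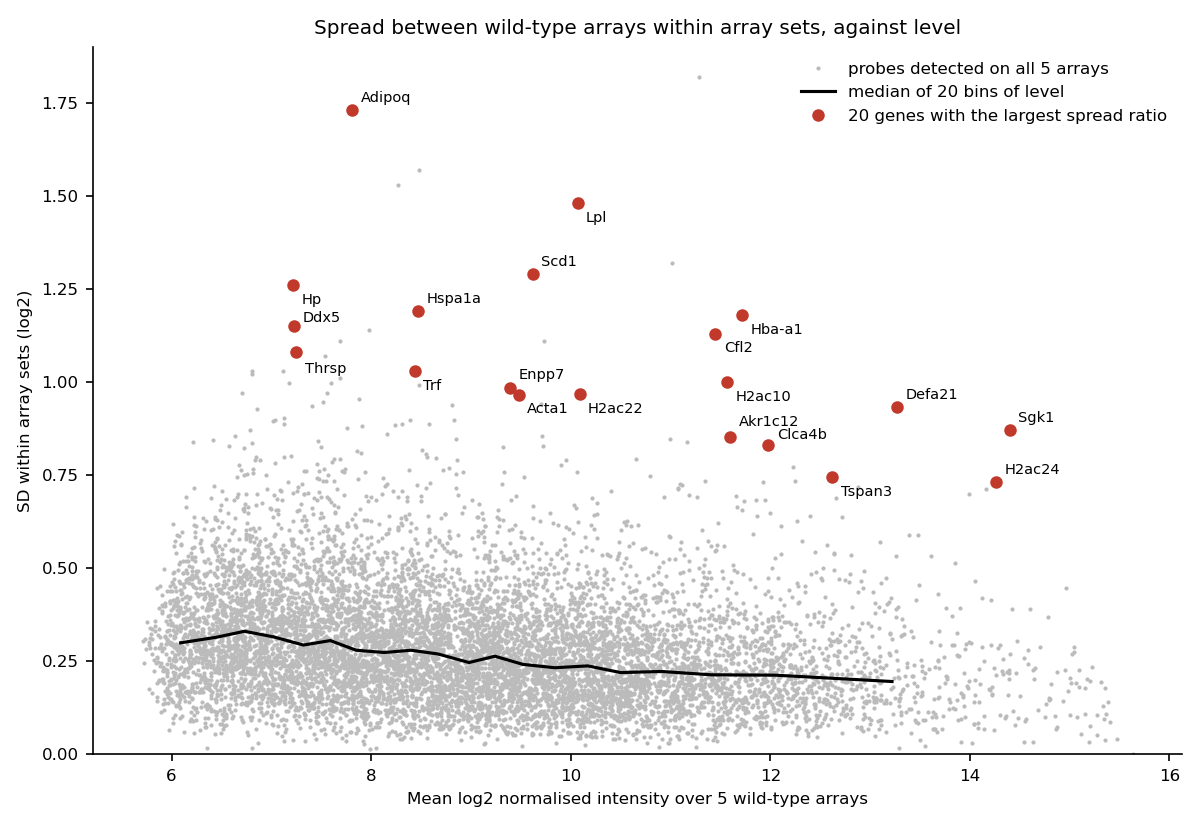
Each grey point is a member probe, by mean log2 normalised intensity over the 5 wild-type arrays and by SD within array sets, and the line is the median of 20 level bins, which peaks at 0.33 and ends at 0.195. The 20 genes with the largest ratio to that line are in red, from Lpl and Adipoq downwards, and grey points as high are unnamed probes or second probes of a gene.

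Fat and lipid genes led the spread. Lpl, the lipase that releases fatty acids at the surface of fat and muscle vessels, stood at 10.76, 9.64, 8.18, 11.63 and 10.13 on WT_640 to WT_644, a ratio of 6.26. Adipoq, the fat cell hormone adiponectin, stood at 8.34, 6.88, 5.82, 9.76 and 8.26, a ratio of 6.22. Without WT_641 these ratios were 9.44 and 8.95, and without WT_642 they were 4.28 and 3.73. Both were lowest on WT_642 and highest on WT_643, and WT_640 exceeded WT_641. The desaturase Scd1 followed the same course at 9.78, 8.91, 8.15, 11.13 and 10.14 (ratio 5.34), as did leptin (Lep) at 7.54, 6.94, 5.82, 8.11 and 7.48 (3.41). Transferrin (Trf), a gene of the liver list, did so too, at 8.99, 8.23, 6.97, 9.29 and 8.72 (3.71). Haptoglobin (Hp) at 8.40, 7.07, 5.35, 8.09 and 7.21 and the lipogenic regulator Thrsp at 8.42, 6.71, 5.89, 7.65 and 7.58 were also lowest on WT_642, with WT_640 highest. Without WT_642 the ratio was 2.77 for Scd1, 2.53 for Hp, 2.72 for Thrsp and 1.75 for Trf. The mean of the 6 detected fat genes was 8.26, 7.43, 7.06, 8.92 and 8.30, and their median spread ratio was 2.66 against 0.985 over all genes. A ratio over 2 was found in 3 of the 6, against 5.4% of all genes. The list includes Lpl and Adipoq, already named for their spread, so its median is not separate from them. Fabp4 and Plin1, defining fat cell genes of that list, were detected on no array, and how far attached fat took part in these values was not tested.

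**Figure D4:**
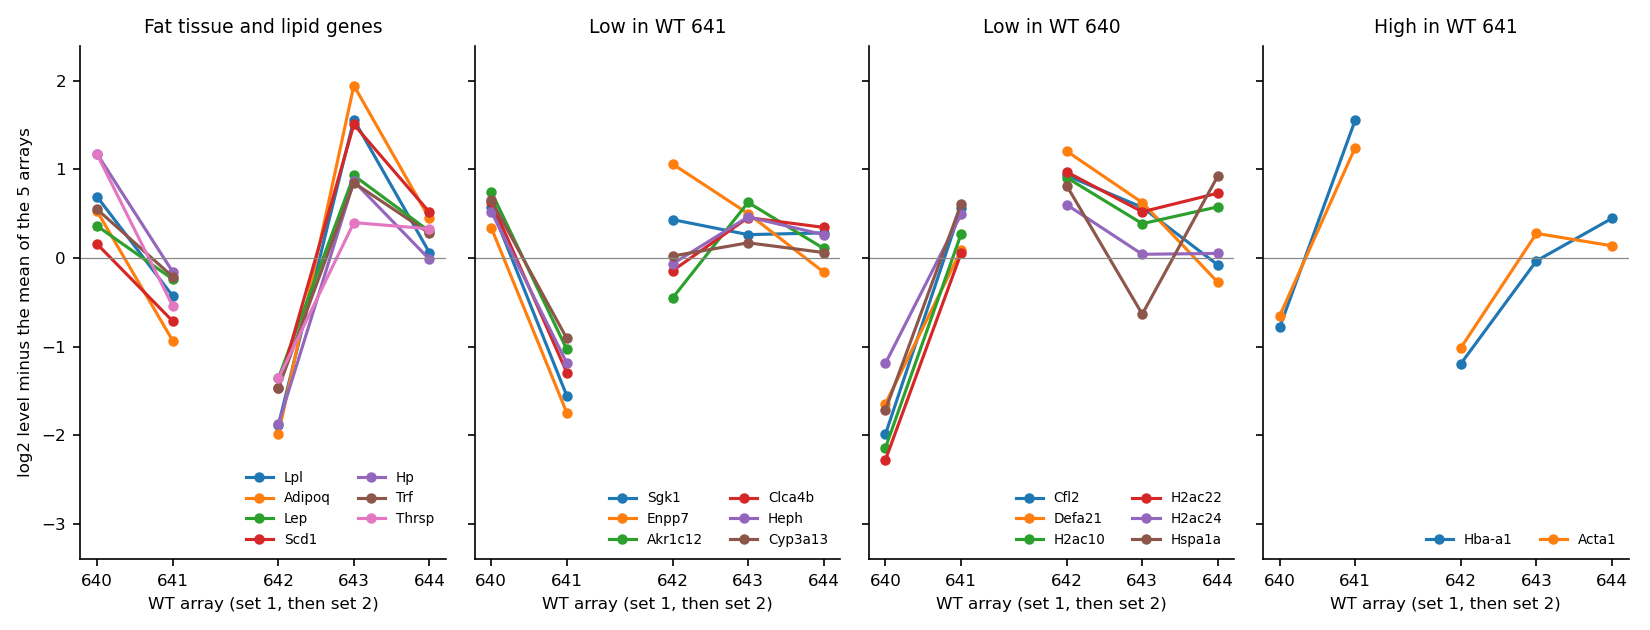
Each panel shows genes of large spread as log2 level minus the mean of the 5 wild-type arrays, with lines joining one gene's values within each array set. Fat and lipid genes, grouped with Hp and Trf, are lowest on WT_642. One group of genes is low on WT_641, another is low on WT_640, and Hba-a1 and Acta1 are highest on WT_641. The panels were put together after the values were seen.

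A pair of genes from tissues other than epithelium were highest on WT_641. Hba-a1, alpha globin, stood at 10.94, 13.28, 10.53, 11.69 and 12.17 (ratio 5.55), and Acta1, skeletal muscle actin, at 8.83, 10.73, 8.47, 9.76 and 9.62 (4.0). For both genes the highest array was WT_641 and the lowest WT_642. Some other genes of the 20 were lowest on WT_641. Enpp7, the brush border sphingomyelinase, stood at 9.73, 7.64, 10.45, 9.89 and 9.23 (4.09), Clca4b at 12.62, 10.69, 11.84, 12.44 and 12.33 (3.91) and Akr1c12 at 12.35, 10.57, 11.15, 12.23 and 11.71 (4.0). Of the absorptive epithelium, the brush border, fat absorption, bile acid and amino acid lists had their lowest means on WT_641, at 11.85, 11.53, 12.18 and 10.15. The bile acid list was nearly as low on WT_642 and WT_643, at 12.21 and 12.24. The sugar uptake list was not lowest on WT_641, with a mean of 10.51 there, level with its highest. A ratio over 2 was found in 2 of 18 brush border genes, against 5.4% of all genes. Sgk1, a kinase gene induced by corticosteroids, was between 14.66 and 14.97 on 4 arrays and 12.84 on WT_641 (ratio 4.46), and 99.2% of its within-set sum of squares came from the pair of set 1. Without WT_641 the spread rests on the 3 arrays of set 2, and the ratio was 0.678 for Sgk1, 1.93 for Clca4b, 3.29 for Enpp7, 3.27 for Akr1c12, 5.18 for Hba-a1 and 3.49 for Acta1.

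A group of histone genes and some others were low on WT_640. The H2A histone probes H2ac10, H2ac22 and H2ac24, whose genes are near-identical copies and whose names are therefore uncertain, stood on WT_640 at 9.43, 7.81 and 13.07, against lowest values of 11.84, 10.14 and 14.30 elsewhere. Their ratios were 4.71, 4.09 and 3.75, and 1.64, 1.29 and 2.21 without WT_640. Without WT_641 they were 1.63, 1.24 and 2.22. Leaving out either array of set 1 makes the spread rest on set 2 alone, so these falls do not single out WT_640. Cfl2, a muscle cofilin, stood at 9.46, 12.01, 12.38, 12.02 and 11.37 (5.27, and 3.16 without WT_640), and Defa21 was lowest on WT_640 at 11.63 and highest on WT_642 at 14.48 (4.78). The inducible heat shock protein Hspa1a was low on WT_640 and lower than elsewhere on WT_643, at 6.76, 9.08, 9.29, 7.84 and 9.40 (4.25). The RNA helicase Ddx5 at 8.32, 6.35, 6.41, 8.31 and 6.74 (3.94) and the tetraspanin Tspan3 at 12.77, 11.46, 12.81, 13.64 and 12.40 (3.81) complete the 20.

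Large spread within the lists did not come from 1 array alone. Drug metabolism had 8 of 24 detected genes over a ratio of 2, led by Cyp2b10 at 8.75, 7.91, 10.30, 8.86 and 8.33 (3.65), Cyp3a13 at 13.37, 11.81, 12.74, 12.89 and 12.78 (3.27) and Cyp3a11 at 12.12, 10.68, 12.27, 11.98 and 11.56 (3.10). All 3 were lowest on WT_641, but the pair of set 1 gave 14.7% of the within-set sum of squares of Cyp2b10, which was highest on WT_642, against 99% for Cyp3a13 and 80.1% for Cyp3a11. In the brush border list Eps8 (ratio 2.90) and Mme (2.44) were also lowest there, at 9.14 and 8.72, as were the iron oxidase Heph (3.45) at 10.75 and the amino acid transporter genes Slc6a19 (2.36) and Slc7a7 (2.17) at 9.80 and 9.83. Smooth muscle was different: Smtn at 11.91, 12.71, 12.50, 11.77 and 11.13 (3.06), Synm (2.02) and Mylk (2.01) were each highest on WT_641 and lowest on WT_644. The mean of the 14 detected smooth muscle genes was 11.20, 11.64, 11.30, 11.12 and 10.71, while that of the 18 brush border genes was 12.25, 11.85, 12.36, 12.32 and 12.40, so the array with the highest muscle mean had the lowest brush border mean. Early response and heat shock genes had 6 of 17 over a ratio of 2, among them Jund (3.20) and the chaperone Hsph1 (3.20), each lowest on WT_640. Tgfb1 (3.11) was highest on WT_641 at 8.27. Lists with no detected gene over a ratio of 2 included goblet, enteroendocrine, tuft, T cell, MHC class I, MHC class II, endothelium, cell cycle, proteasome and nuclear receptor genes. Over all genes 5.4% passed that ratio, and these lists held 5 (tuft) to 28 (proteasome) detected genes. Having none among so few genes does not mark a list as stable.

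A few further members mark the variable end of their lists. In bile acid handling Fgf15 had a ratio of 2.91, in fat absorption Sar1b 2.57, in sugar uptake Tkfc 2.51 and Khk 2.08, in stem cell genes Olfm4 2.10, and in fibroblast genes Dcn 2.79 and Lum 2.22. In macrophage genes C1qa had 2.44, in clock genes Per1 2.41, in pattern recognition Pycard 2.17, in junction genes Dsg2 2.33, in cytokine receptors Tnfrsf1a 2.72 and in interferon-inducible genes Bst2 2.01. In fasting targets Angptl4 had 3.26 and Acaa2 2.83, and in cholesterol synthesis Cyp51, Srebf2 and Hsd17b7 had 2.31, 2.20 and 2.08. Housekeeping lists held variable members too, with Rpl7a at 3.13, Atp5pb at 3.01, Eef2 at 3.63 and Eef1b2 at 3.21. Per1, for one, stood at 9.17, 7.85, 9.36, 9.29 and 9.84, lowest on WT_641.

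Most of this spread came from 1 pair of arrays. In 83 of the 100 most variable genes the pair WT_640 and WT_641 gave most of the within-set sum of squares, against 46.1% of all genes. Without WT_641, 38 of the 100 stayed among the 100 largest and without WT_640, 39 did, and 15 of the first 20 stayed in the 100 in each case. Among the first 20, Lpl, Adipoq, Scd1 and Trf were exceptions, with at most 12% from that pair, while Thrsp had 42.4%. Further down the 100, Fkbp5 had 8.31% and Dcn 5.14%, so a low share was not particular to fat genes. With the array set ignored, 31 of the 100 remained.

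The ranking was set against measurements it had not used. In the IFNgKO arrays, treated the same way, 19 of the 100 most variable genes were again among the 100 largest ratios, where the share of all genes is 1.37%, and 10 of the first 20 were. A ratio over 2 was found there for 44 of the 100 and 16 of the 20, against 7.27% of all genes. Lpl, Adipoq, Scd1 and Enpp7 had ratios of 9.14, 9.47, 9.18 and 10.5 there. Hspa1a (1.51), Akr1c12 (1.52), Ddx5 (1.65) and H2ac24 (1.96) did not pass 2. Across all 7280 genes the ratios in the wild-type and IFNgKO arrays were only weakly related (Spearman rho 0.16, a description across genes that share arrays). A second detected probe existed for 24 of the 100 genes, and 15 of these 32 other probes had a ratio over 2 (46.9%), against 8.93% of all second probes. The second probe of Enpp7 stood at 8.73, 6.59, 9.30, 9.41 and 8.37, again lowest on WT_641, whereas that of Tspan3 had a ratio of 1.42.

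Array set, the batch named in the labels, was the other source of spread. Over the 12217 probes detected on at least 2 wild-type arrays, limma with Benjamini-Hochberg adjustment at 5% called 595 higher in set 2 (4.87%) and 19 lower (0.156%), 5.03% in all. Among the 9697 members 349 were called (3.6%), 335 higher by a median of 1.40 (0.94 to 2.66, log2) and 14 lower, by a median of -1.07. The median over all members was -0.12, so the calls are relative to a body of probes slightly lower in set 2. Leaving out WT_640 to WT_644 in turn, 6.68%, 2.56%, 1.87%, 1.78% and 1.4% of the members were called. With all 10 samples and a genotype term 17.2% were called, 1031 higher and 634 lower.

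The lowest p-values among higher genes belonged to genes of varied function: Chchd7, Cox20 and Mrps18c of the mitochondrion, the actin nucleator subunit Actr3, the sugar phosphate mutase Pgm1, the adaptor Ywhaz, the clock repressor Bhlhe40, the sorting factor Vps36, the phosphate carrier Slc25a3 and the splicing regulator Esrp1. Chchd7 stood at 6.68 and 6.26 in set 1 and at 9.07, 8.81 and 8.76 in set 2, a difference of 2.41 (SE 0.25, adjusted p = 0.00349). Ywhaz, often used as a reference gene, stood at 9.83 and 9.83 against 12.10, 11.72 and 12.10, a difference of 2.14 (SE 0.24, same adjusted p). The sets did not overlap for either gene, but both were picked by p-value on these same arrays, so this adds no separate support. Genes of the lists were among the calls as well, the neuropeptide Vip by 2.02 (SE 0.25), neurotensin (Nts) by 1.98 (SE 0.31), somatostatin (Sst) by 1.72 (SE 0.26) and the lectin Reg3a by 1.58 (SE 0.23), with adjusted p of 0.00349, 0.00737, 0.00700 and 0.00639. The 10 lower genes with the lowest p-values were Csnk1g1, Ctu2, Igfbp6, Kdm5b, Inf2, Taf1d, Dock6, Cartpt, Tpcn2 and Mob2, from -1.48 (SE 0.27, adjusted p = 0.0142) in Csnk1g1 to -0.93 (SE 0.23, adjusted p = 0.0465) in Mob2. The 10 higher genes stayed past 5% under all of their 14 or 15 alternatives. Of the lower genes, Kdm5b and Dock6 stayed past 5% in 3 of 14 alternatives each, Inf2 in 4 of 14, Tpcn2 in 5 of 15 and Csnk1g1 in 11 of 14. In the IFNgKO arrays Igfbp6 differed by -1.54 (adjusted p = 0.0451), Csnk1g1 by -0.65 (0.0912), Kdm5b by -0.16 (0.555) and Inf2 by -0.02 (0.950).

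**Figure D5:**
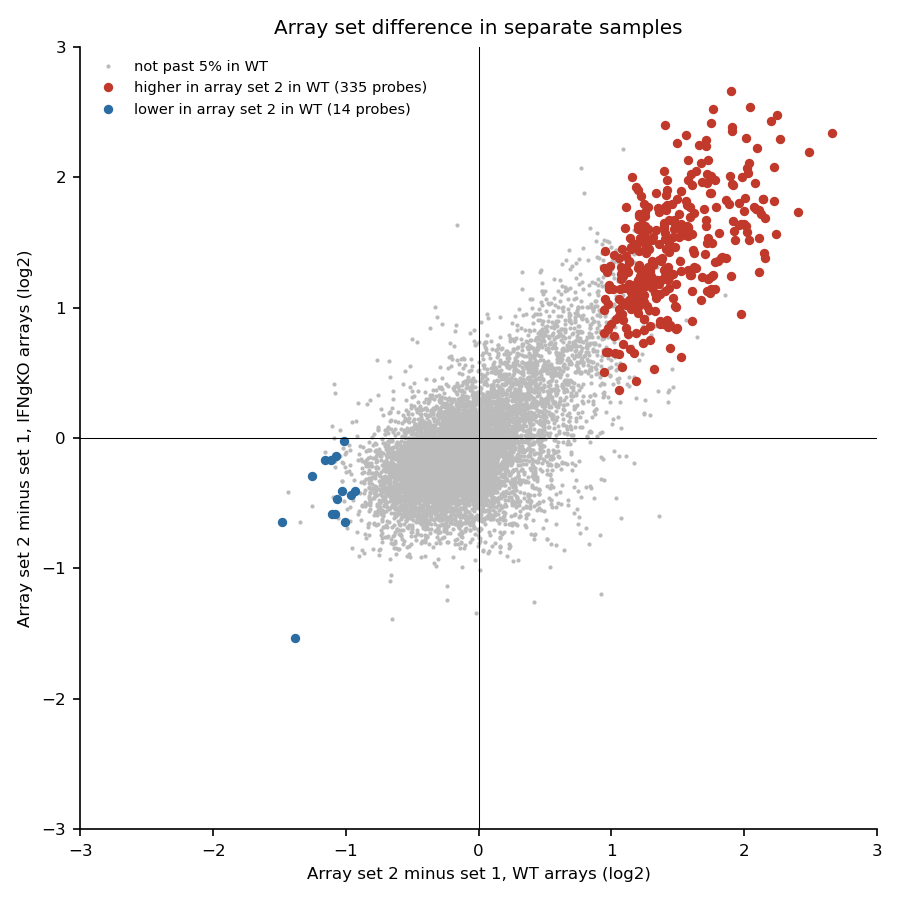
Each point is a member probe, by the difference of array set 2 minus array set 1 in the 5 wild-type arrays (horizontal, log2) and in the 5 IFNgKO arrays (vertical, log2). The 335 probes called higher in wild type (red) all lie above 0 in the IFNgKO arrays, and the 14 called lower (blue) all lie below it.

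The array set difference was looked at again in samples it had not been fitted on. In the IFNgKO arrays all 335 higher and all 14 lower members had the same direction, and 316 and 2 of them were called there. Over all 9697 members limma called 746 higher and 179 lower there, and over all tested probes 9.55% and 1.99%. Of all members 34.9% were higher in set 2 there, with a median difference of -0.13. The median of the 335 was 1.39 there, and that of the 14 was -0.42, against -1.07 in wild type. Other probes of the same genes differed less: 128 of the higher probes belong to a gene with another member probe, which gave 178 pairs of a higher and another probe. Over these pairs the median difference of the other probe was 0.05 in wild type, with 82 below 0, and -0.10 in IFNgKO. In 24 of the 178 pairs (13.5%) the other probe was called higher in wild type, against 335 of all 9697 members and 4.87% of all tested probes. Among the 24 was the other probe of Slc25a3, by 1.41. A probe called higher can itself be the other probe of its gene, and a probe counts once for each pair it is in. In the wild-type arrays of the fit, Vip stood at 6.35 and 6.72 in set 1 and at 8.77, 8.46 and 8.43 in set 2. Reg3a stood there at 10.63 and 10.77 against 12.42, 12.11 and 12.32. In the IFNgKO arrays Vip stood at 6.43 and 6.42 in set 1 and at 8.36, 8.61 and 9.21 in set 2. Reg3a stood in those arrays at 10.30 and 11.10 against 12.21, 12.17 and 12.56.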

How the data were processed

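RNA from 5 wild-type and 5 IFNgKO ileum samples was measured on Illumina bead arrays, 1 array a sample. Per the file headers, the authors deposited a non-normalised intensity, linear in scale, and a detection p-value for each probe on each array. The authors' deposited value table holds linear intensities whose ranks match the non-normalised ones and whose sorted values above the median rank differ by at most 0.556% between arrays; it was used as an alternative. The submitters' processing notes name lumi; scanner software and genome build are not given in the sources used here. The number of arrays limits the precision.

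All 10 arrays were normalised together by neqc (limma 3.58.1, R 4.3.3; normexp from detection p-values, offset 16, quantile). Python 3.11.15 did the rest. Of 25697 probes 23978 have 1 gene symbol in the platform table and 1719 none; 23962 matched a RefSeq gene table (GRCm38.p6) by Entrez identifier and 9 by accession. Array sets were compared by limma (lmFit, eBayes). The fit was tested on simulated data, with 50 probes changed at each size. It recovered 0% of differences of 0.5 log2, 4% of those of 1, 38% of those of 1.5 and 74% of those of 2. Alternatives were the detection threshold, background correction, scaling, the authors' values, filters, the variance model, array weights, a genotype term and leaving out each array. The members and the 47 lists (987 genes on the table, 612 detected) were chosen with earlier results of these data known. Named genes are the 25 brightest; per list the 4 brightest and, in lists of other tissues, members detected on no array; the 20 largest spread ratios and the 3 largest per list; the 10 lowest p-values per direction of the array set comparison; and Ifng, Y-linked genes and Xist.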

Additional observations from a re-analysis of the deposited data

Results flagged for a closer look

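In 208 named genes and 5 array measures, the array farthest out was compared with the nearest of the others; a gap over 0.71 of the whole range marks a value, which chance alone would give in about 1 group in 20. It was found for 11 of 213, or 5.16%, all of them genes. On WT_640, H2ac10 stood at 9.43 (others 11.84 to 12.48), H2ac22 at 7.81 (10.14 to 11.06), Esam at 9.56 (10.03 to 10.16) and Col6a1 at 11.60 (11.19 to 11.24). On WT_641, Sgk1 stood at 12.84 (14.66 to 14.97), B2m at 13.96 (14.43 to 14.56), Ctrl at 7.17 (6.53 to 6.68) and Mptx1 at 6.47 (5.56 to 5.82). On WT_642, Nr1h4 stood at 12.35 (12.90 to 13.06) and Serpina1b at 10.14 (11.21 to 11.57), and on WT_644 Slc51a stood at 14.90 (14.59 to 14.64).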

How the results depend on the processing

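No paired analysis was possible because no sample number occurs in more than 1 group. Leaving out 1 array gave 9742 to 10192 members, and 10666 were detected on at least 4 arrays and 7697 at p under 0.01. At that stricter p the lists kept 532 of 612 genes, but cytokines fell from 7 to 1 and tuft genes from 5 to 3. Of the 25 brightest genes 24 or 25 remained under the other intensities and without any 1 array, and 16 when a gene's probes were averaged. Of the 100 most variable genes 63 remained when ranked by SD itself, 31 with the array set ignored, 77 to 95 under other normalisations, and 38 to 88 without 1 array (39 without WT_640, 38 without WT_641). The array set comparison called 3.6% of members. Median scaling gave 5.77%, no filter 1.5%, and all 10 samples with a genotype term 17.2% (1031 higher and 634 lower, 61.9% higher against 96.0%). Leaving out 1 array gave 1.4% to 6.68%: 6.68% without WT_640 (517 higher, 131 lower), 2.56% without WT_641, 1.87% without WT_642, 1.78% without WT_643 and 1.4% without WT_644. The cause of these shifts was not tested. Of 758 set differences of single genes under the alternatives 588 stayed past 5%, 170 did not and 0 turned. Of 180 spread ratios 21 moved by over 1.5 times. With 2 arrays against 3, a difference that missed 5% is not shown to be absent, and dim probes near background bound the detection counts.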

Other observations

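Some detected probes lay outside the ranking by gene, because they are unnamed or because a brighter probe stands for their gene, and those below were chosen after their values were seen. The largest spread ratio of all members, 8.50, belonged to an unnamed probe at 11.87, 10.95, 8.77, 12.93 and 11.93 on WT_640 to WT_644, the same order of arrays as Lpl within each set, and it was 9.33 in the IFNgKO arrays. A second probe of Pmp22 stood at 11.72, 9.21, 10.29, 12.33 and 11.52 (5.97), and 2 further probes each of Cyp2d26 (4.77 and 4.05) and of the brush border metalloprotease Mep1b (3.93 and 3.82) were lowest on WT_641.

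The reference gene Actb gave different answers by probe. Its brightest probe stood between 15.40 and 15.52 on every array, close to the ceiling of the scale. Of the 4 dimmer ones, 2 stood at 7.18, 10.11, 7.64, 7.65 and 9.81 and at 6.98, 9.96, 7.29, 7.71 and 9.42, with ratios of 5.64 and 5.48, high on WT_641 and WT_644. Those arrays also had few detected probes, 10618 and 10818, the lowest of the 5. In the IFNgKO arrays the same 2 probes had ratios under 2. Both Gapdh probes varied little, with ratios of 0.731 and 0.472. The part of array brightness in these values was not tested.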
